A study of Mus musculus with 3 samples.

Results

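The genes followed were 10 that together mark lipid-handling macrophages of the *Trem2* type: *Trem2*, *Cd36*, *Lpl*, *Fabp4*, *Fabp5*, *Apoe*, *Gpnmb*, *Spp1*, *Cd9* and *Lgals3*. They are 10 of the 32285 genes in the count tables, were listed by name and matched by Ensembl ID. Male C57BL/6J mice, an inbred laboratory strain, aged 7 to 12 weeks received full-thickness excisional punch wounds in the shaved back skin, although the design record of the series calls the injury incisional. Unsorted cells of wounds at Day 3, Day 7 and Day 14 were captured in droplets, with 4 wounds pooled into 1 library per day. No unwounded skin and no second library of any day was analysed here, so each difference below is between 2 libraries, has no replicate check and carries no test. Intervals are at 95% and cover counting error only.

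*Trem2* is a surface receptor for lipids and lipoproteins that signals through the adaptor *Tyrobp*. Macrophages that clear dying cells take in membrane lipid, and in fat, atheroma and injured tissue such cells are known for high levels of *Trem2* beside genes that bind, split, carry or export lipid. *Cd36* is a scavenger receptor and fatty acid transporter, *Lpl* splits the triglycerides of lipoproteins, *Fabp4* and *Fabp5* carry fatty acids inside the cell, and *Apoe* is the protein of the particles in which cholesterol leaves it. *Gpnmb* is a membrane glycoprotein of lysosomes under lipid load, *Spp1* encodes secreted osteopontin, *Cd9* is a tetraspanin of the cell surface, and *Lgals3* encodes galectin-3, which binds damaged lysosomes.

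Cells were grouped by clustering into classes named from standard marker genes, and the macrophage-like class held 2721 cells at Day 3, 9483 at Day 7 and 3240 at Day 14, which were 62.4%, 48.4% and 24.0% of the cells kept. Its median depth was 4058, 2537 and 3531 UMIs per cell (unique molecular identifiers, which count mRNA molecules rather than amplified copies). All 10 macrophage markers had UMIs in it at each day, and 9 of 10 at Day 3 and Day 7 and 10 of 10 at Day 14 were higher there than in any other class. The exception was *Cd14*, which was higher in neutrophil-like cells. The class was named from these same markers, so their order follows in part from the naming and is no check of it. The libraries shared few cell barcodes, with 43 between Day 3 and Day 7, 111 between Day 7 and Day 14 and 19 between Day 14 and Day 3. Markers of fibroblasts were also counted in macrophage-like cells, with all 8 of 8 above 0 at each day. Their summed level was 417, 3778 and 5709 CPM (the UMIs of a gene scaled by the total UMIs of the same cells), or 0.618%, 3.29% and 4.56% of that in fibroblast-like cells. The part of this RNA in the results below was not tested, but at those ratios fibroblast-like cells would account for 16.6% of the macrophage-like *Cd9* level and 4.40% of that of *Gpnmb* at Day 14, 2.79% of *Cd9* at Day 7, and under 2% of the level of each other gene of the set. The same ratio for the markers of other classes gives over 2% for *Fabp4*, *Fabp5*, *Cd9*, *Lgals3* and *Gpnmb*, and those values stand beside these genes below. All such values hold only if the marker UMIs came from the class named, which was not tested. The 8 neutrophil markers summed to 247 CPM at Day 3, 151 at Day 7 and 47.5 at Day 14, with *Retnlg* at 0 in the last. At their ratio to neutrophil-like cells, these would account for 4.04% and 2.68% of the macrophage-like *Cd9* level at Days 3 and 7 and for 1.22% and 0.565% of that of *Spp1*. Markers of adipocytes, which also express *Fabp4*, *Cd36* and *Lpl*, summed to at most 0.410 CPM. Melanocyte markers summed to 1.07, 1.05 and 29.3 CPM and erythroid markers to 2.71, 52.6 and 198 CPM at Days 3, 7 and 14. No class of either kind was named, so no such ratio could be taken for them.

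*Trem2* UMIs came almost entirely from macrophage-like cells. The gene (ENSMUSG00000023992) lies on the plus strand at chr17:48346401-48354147 of GRCm38. Its level in macrophage-like cells was 231 CPM (222 to 239.6) at Day 3, 329 CPM (322 to 336) at Day 7 and 182 CPM (175 to 189.9) at Day 14, from 2815, 8805 and 2274 UMIs. The Day 7 library was the highest and the Day 14 library the lowest, and the 3 counting intervals did not overlap. Macrophage-like cells gave 97.8%, 91.6% and 93.3% of all *Trem2* UMIs at Days 3, 7 and 14. The next class was at 12.6 CPM at Day 3 (dendritic cell-like), 42.9 CPM at Day 7 (T cell-like) and 23.0 CPM at Day 14 (Schwann cell-like). Those 3 levels rest on 20, 31 and 14 UMIs, the last in 2.13% of 141 cells. Fibroblast-like cells were the lowest at 1.56, 8.49 and 1.25 CPM.

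The Day 7 UMIs of *Trem2* in other classes can be set against those of *Apoe*, which is also abundant in macrophage-like cells. *Trem2* UMIs per 100 *Apoe* UMIs were 2.84 (2.78 to 2.90) in macrophage-like cells, 2.50 (1.70 to 3.55) in T cell-like, 2.46 (1.86 to 3.21) in neutrophil-like and 2.38 (2.18 to 2.59) in fibroblast-like cells. The T cell-like and neutrophil-like intervals overlapped that of macrophage-like cells, the fibroblast-like one lay below it, and dendritic cell-like cells were above it at 4.14 (3.41 to 4.99). Whether free RNA gave these UMIs was not tested. When each cell was thinned to 1000 UMIs and shallower cells were left out, 19.3% (17.7 to 20.9%) of 2497 macrophage-like cells at Day 3, 23.6% (22.7 to 24.5%) of 8635 at Day 7 and 14.8% (13.5 to 16.1%) of 3018 at Day 14 held a *Trem2* UMI. The same share in fibroblast-like cells was 0.15%, 0.89% and 0.19%, at median depths of 44284, 10306 and 9885 UMIs before thinning. Without thinning the macrophage-like shares were 49.0%, 44.4% and 33.8%, an order that differs from that of the CPM.

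Promoter windows show what lies directly before the genes whose levels are compared most below. RefSeq windows of 250 bases before the start (GRCm38.p6) were on hand for 7 of the 10 genes, in 10 windows, and 3 are shown, 5′ to 3′: the plus-strand windows of *Trem2* at chr17:48346151-48346400 and *Gpnmb* at chr6:49036268-49036517, and the first of 2 of *Spp1* at chr5:104434861-104435110. Capitals mark the core bound by PU.1, the master regulator of macrophages (GAGGAA or its reverse complement TTCCTC), and a loose AP-1 pattern. That pattern (TGANTCA) allows any base at N, where the AP-1 consensus has C or G.
Trem2: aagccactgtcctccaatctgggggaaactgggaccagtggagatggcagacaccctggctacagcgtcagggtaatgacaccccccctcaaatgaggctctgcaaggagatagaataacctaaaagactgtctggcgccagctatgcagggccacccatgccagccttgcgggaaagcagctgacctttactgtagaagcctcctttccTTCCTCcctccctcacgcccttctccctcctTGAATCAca
Gpnmb: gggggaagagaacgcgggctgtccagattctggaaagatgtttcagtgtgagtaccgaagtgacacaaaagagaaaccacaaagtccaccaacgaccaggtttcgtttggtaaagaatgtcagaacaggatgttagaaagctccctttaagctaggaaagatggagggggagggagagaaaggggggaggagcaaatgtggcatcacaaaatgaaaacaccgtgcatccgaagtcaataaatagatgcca
Spp1: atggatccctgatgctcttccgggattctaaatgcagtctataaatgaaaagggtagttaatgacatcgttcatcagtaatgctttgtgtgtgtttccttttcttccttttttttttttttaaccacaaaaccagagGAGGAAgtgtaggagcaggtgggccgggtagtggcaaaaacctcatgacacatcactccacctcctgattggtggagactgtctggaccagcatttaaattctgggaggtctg
The *Trem2* window held the PU.1 core at 40 bases and the loose AP-1 pattern at 9 bases before the start, with no overlap between them. The latter match, TGAATCA, has A at the middle base and so is not the AP-1 consensus. The *Spp1* window held a PU.1 core at 113 bases. Neither motif was found in the *Gpnmb* window, and the E-box CACGTG was in none of the 10. Among 32851 windows of the same length, 23.3% held the PU.1 core on either strand, 6.75% the loose AP-1 pattern and 6.02% the E-box. These matches describe letters only.

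Between Day 3 and Day 7 the macrophage-like class differed in 6 of the 10 genes by at least 2-fold, with 4 higher and 2 lower at Day 7. *Fabp4*, *Fabp5*, *Apoe* and *Gpnmb* were the 4 higher, where 2.43% of 7250 genes with a mean of at least 10 CPM, and 9.19% of 11348 genes with a mean of at least 1 CPM, were as much higher. *Spp1* and *Cd9* were the 2 lower, against 5.24% of those genes. The median log2 ratio of the 10 genes was 0.58 and that of all genes tested was -0.13. From Day 7 to Day 14, *Cd36*, *Fabp5*, *Gpnmb* and *Spp1* were at least 2-fold lower, against 3.26% of 7150 genes, and none of the 10 was 2-fold higher, against 2.48%. The median log2 ratio was then -0.61 for the 10 genes and -0.10 for all genes. Both steps share the Day 7 library, so a low or high value there moves the 2 ratios of a gene in opposite directions.

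**Figure D1:**
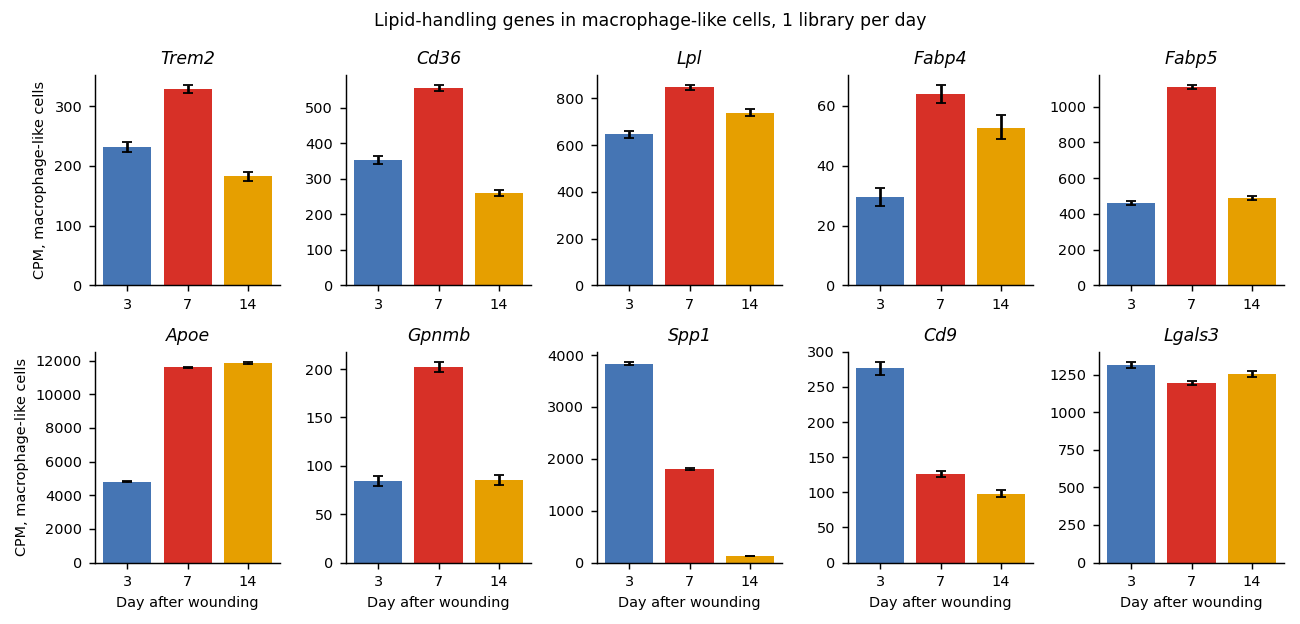
Level of each of the 10 genes in macrophage-like cells, in CPM (vertical axis, from 0, a separate scale for each gene), by day after wounding (horizontal axis). Each bar is 1 library and error bars are 95% Poisson counting intervals. *Trem2*, *Cd36*, *Lpl*, *Fabp4*, *Fabp5* and *Gpnmb* were highest in the Day 7 library, *Spp1* and *Cd9* in the Day 3 library, and *Apoe* was at 4800.2, 11599.8 and 11876 CPM.

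**Figure D2:**
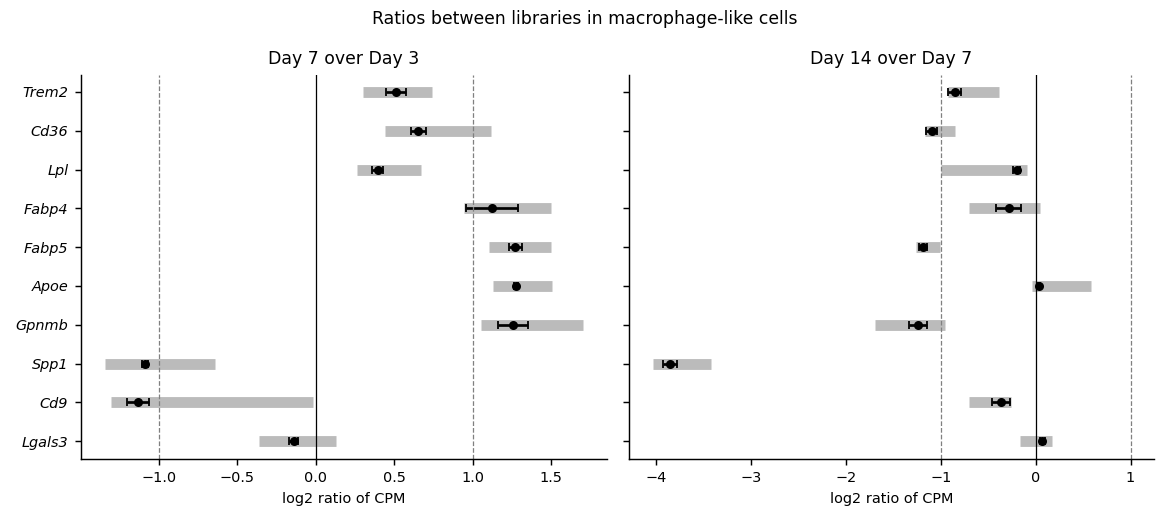
Log2 ratio of CPM between libraries in macrophage-like cells for the 10 genes (horizontal axis; left, Day 7 over Day 3; right, Day 14 over Day 7). Points with bars are the ratio and its 95% counting interval, grey bars the range over the alternative settings, and dashed lines mark 2-fold. *Gpnmb* lay at 1.26 and then -1.24, and *Lgals3* lay near 0 in both steps with a sign that depended on the setting.

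The receptors of the set were highest at Day 7 and lowest at Day 14. *Trem2* had a log2 ratio of 0.51 (0.45 to 0.57) from Day 3 to Day 7 and of -0.85 (-0.92 to -0.79) from Day 7 to Day 14, below 2-fold in each step. *Cd36* (ENSMUSG00000002944, minus strand, chr5:17781690-17888801) was at 353, 556 and 260.1 CPM in macrophage-like cells at Days 3, 7 and 14. Its log2 ratios were 0.65 (0.60 to 0.70) and -1.10 (-1.15 to -1.04), so the second step passed 2-fold and the first did not. With each library clustered alone the first was 1.11. The second was -0.85 when every cell was given equal weight, -0.90 with each library clustered alone and -0.99 with scaling by the median of ratios. Macrophage-like cells were the highest class for *Cd36* at Day 3 and Day 7, with neutrophil-like cells next at 11.9 CPM and then endothelial cell-like cells at 205 CPM. At Day 14 endothelial cell-like cells, which use *Cd36* for fatty acid uptake, were higher at 357 CPM, by a log2 ratio of 0.46 (0.32 to 0.59). The share of *Cd36* UMIs that came from macrophage-like cells was 97.4%, 90.8% and 76.4%.

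*Lpl* (ENSMUSG00000015568, plus strand, chr8:68880491-68907448) differed less between libraries, with 645, 848 and 739 CPM in macrophage-like cells. The log2 ratios were 0.39 (0.36 to 0.43) and -0.20 (-0.23 to -0.16), both under 2-fold. The class was the highest for *Lpl* at each day, by 7.96-fold over fibroblast-like cells at Day 3 and by 3.34-fold and 2.30-fold over pericyte-like cells at Days 7 and 14. Within the class the source changed: at Day 14 a single cluster led by *Retnla* held 24.4% of the UMIs of the class and 57.9% of its *Lpl* UMIs. Without that cluster, left out after its values were seen, the Day 14 to Day 7 log2 ratio of *Lpl* was -0.92.

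*Fabp4* and *Fabp5*, which lie 187480 bases apart on chromosome 3, had different cell sources. *Fabp5* (ENSMUSG00000027533, plus strand, chr3:10012548-10016607) was at 461, 1111 and 488 CPM in macrophage-like cells at Days 3, 7 and 14. The log2 ratios were 1.27 (1.23 to 1.31) and -1.19 (-1.23 to -1.15), and the Day 14 level was back within 0.08 log2 units of that at Day 3. Dendritic cell-like cells were higher for *Fabp5* at Day 3 (666.5 CPM) and Day 7 (2494 CPM), and epithelial cell-like cells, where it is the epidermal form, at Day 14 (3309 CPM); with called doublets kept, epithelial cell-like cells were the highest at Day 7 too. At their marker ratios, dendritic cell-like cells would account for 3.12% and 3.43% of the macrophage-like *Fabp5* level at Days 7 and 14, and epithelial cell-like cells for 4.14% at Day 14.

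*Fabp4* (ENSMUSG00000062515, minus strand, chr3:10204088-10208576) was low in macrophage-like cells, at 29.4 CPM (26.5 to 32.6), 64.0 CPM (61.0 to 67.1) and 52.7 CPM (48.8 to 56.9), from 359, 1713 and 658 UMIs. Its log2 ratios were 1.12 (0.96 to 1.29) and -0.28 (-0.41 to -0.15), and the first was 0.94 at a limit of 5% mitochondrial UMIs. The sign of the second turned to 0.05 when every cell was given equal weight. The main sources were the vessel cells, with 2773 and 8188 CPM in endothelial cell-like and 1719 and 2474 CPM in pericyte-like cells at Days 7 and 14, and macrophage-like cells gave 21.9%, 17.6% and 3.68% of its UMIs. Endothelial cell markers in macrophage-like cells stood at 0.459% and 0.444% of their level in endothelial cell-like cells at Days 7 and 14, at which ratios those cells would account for 19.9% and 68.97% of the macrophage-like *Fabp4* level. Pericyte-like cells would account in the same way for 3.19% and 8.90%. The summed endothelial cell markers were at 27.0, 21.8 and 18.0 CPM in macrophage-like cells at Days 3, 7 and 14. Endothelial cell-like cells numbered 13, 228 and 237 at those days. The endothelial percentages hold only if those marker UMIs came from endothelial cell-like cells. That source and the part of carried RNA in the *Fabp4* ratios were not tested. At Day 3 the endothelial cell-like and pericyte-like classes held 13 and 10 cells, under the minimum of 50, so the first place of macrophage-like cells for *Fabp4* at that day was among 4 classes without them, and it went to dendritic cell-like cells when every cell was given equal weight.

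*Apoe* separated Day 3 from the later days. The gene (ENSMUSG00000002985, minus strand, chr7:19696109-19699188) was at 4800.2 CPM at Day 3, 11599.8 CPM at Day 7 and 11876 CPM at Day 14 in macrophage-like cells, from 58528, 310288 and 148192 UMIs. The first step was a log2 ratio of 1.27 (1.26 to 1.29). The second was 0.03 and turned to -0.03 when the 50 most abundant genes were left out of the scaling and to 0.58 with each library clustered alone, so no direction is drawn. Day 14 stood 2.47-fold above Day 3, and *Apoe* was the only one of the 10 at least 2-fold higher over that span, against 5.64% of 7167 genes. Macrophage-like cells gave 98.4%, 90.6% and 76.8% of *Apoe* UMIs, and fibroblast-like cells were the next source at each day with 1.05%, 6.67% and 9.28%. By level, epithelial cell-like cells came next at Day 14 with 3278 CPM.

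*Gpnmb* (ENSMUSG00000029816, plus strand, chr6:49036546-49070929) had the same Day 3 and Day 14 level in macrophage-like cells within counting error, with a peak between. It was at 84.6 CPM (79.6 to 89.97), 202 CPM (197 to 208) and 85.5 CPM (80.5 to 90.8), from 1032, 5408 and 1067 UMIs. The log2 ratios were 1.26 (1.16 to 1.35) and -1.24 (-1.34 to -1.15), and Day 14 over Day 3 gave 0.01 (-0.11 to 0.14). The step down was -0.96 at a clustering resolution of 0.5 and -0.98 without the *Retnla*-led cluster, just under 2-fold. In the whole library, by contrast, *Gpnmb* was at 32.4, 85.5 and 91.6 CPM. Macrophage-like cells gave 89.8% of its UMIs at Day 3, 62.8% at Day 7 and 12.0% at Day 14, when fibroblast-like cells gave 54.0% and cells of unnamed clusters 31.1%. Schwann cell-like cells were the highest class at Day 14, with 180.4 CPM, but macrophage-like cells were the highest with the full expected rate of doublets removed and fibroblast-like cells with each cell classed from its own markers. At their marker ratio, Schwann cell-like cells would account for 2.02% of the macrophage-like *Gpnmb* level at Day 14, beside the 4.40% for fibroblast-like cells. The summed Schwann cell markers were at 44.4, 46.4 and 39.9 CPM in macrophage-like cells at Days 3, 7 and 14. Schwann cell-like cells numbered 10 at Day 7 and 141 at Day 14. The source of those marker UMIs was not tested, and neither was whether the 2.02% reflects carried RNA.

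*Spp1* showed the widest range of the set. The gene (ENSMUSG00000029304, plus strand, chr5:104435118-104441050) stood at 3837 CPM at Day 3, 1803 CPM at Day 7 and 125 CPM at Day 14 in macrophage-like cells, from 46782, 48238 and 1561 UMIs. Log2 ratios were -1.09 (-1.11 to -1.07) and -3.85 (-3.92 to -3.78), and Day 14 was 30.7-fold below Day 3. The first step was under 2-fold without the 50 most abundant genes (-0.86), with the median of ratios (-0.96) and with each library clustered alone (-0.64). *Spp1* and *Cd9* were the 2 genes of the set at least 2-fold lower at Day 14 than at Day 3, against 12.9% of genes. Macrophage-like cells were the highest class at Day 14 alone, when neutrophil-like cells numbered 21, under the minimum of 50, and were not among the 8 classes compared. Neutrophil-like cells held 9967 CPM at Day 3 and 2472 CPM at Day 7, 2.60-fold and 1.37-fold the macrophage-like level.

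The *Spp1* UMIs of both classes were uneven among their cells. The 10% of neutrophil-like cells with the most *Spp1* held 79.1% of the *Spp1* UMIs of the class at Day 3 and 85.8% at Day 7, and the highest single cell had 488 and 101 UMIs. In macrophage-like cells the corresponding shares were 64.3% and 71.0%, and the highest cell had 1305 and 959 UMIs. Of the 2 neutrophil-like clusters at Day 3, cluster 8 was at 16747 CPM over 424 cells and cluster 22 at 2675 CPM over 437 cells. The ratio of neutrophil-like *Spp1* to *Apoe* was far from that of macrophage-like cells, with 8182 *Spp1* UMIs per 100 *Apoe* UMIs against 79.9 at Day 3 and 146 against 15.5 at Day 7. Median depth in neutrophil-like cells was 1231 and 712 UMIs. After thinning to 1000 UMIs, 47.6% of neutrophil-like and 55.3% of macrophage-like cells held an *Spp1* UMI at Day 3, beside 5.79% of fibroblast-like cells. At Day 7 the order was the other way, with 45.2% (38.8 to 51.8%) of neutrophil-like and 40.5% (39.4 to 41.5%) of macrophage-like cells, beside 9.76% of fibroblast-like cells; the intervals overlapped, and 1410 of 1649 neutrophil-like cells were too shallow and left out.

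*Cd9* and *Lgals3* were found in many classes. *Cd9* (ENSMUSG00000030342, minus strand, chr6:125460266-125494791) was at 276, 126 and 98.1 CPM in macrophage-like cells, with log2 ratios of -1.13 (-1.20 to -1.06) and -0.36 (-0.46 to -0.27). Neutrophil-like cells were higher at Day 3 (2378 CPM) and Day 7 (822 CPM) and Schwann cell-like cells at Day 14 (1735 CPM), and at Day 14 macrophage-like cells were the lowest of 8 classes. Neutrophil-like cells at Day 14 (21 cells) and Schwann cell-like cells at Day 7 (10 cells) were under the minimum of 50 and were not compared. Macrophage-like cells gave 45.9%, 26.1% and 3.32% of *Cd9* UMIs, and fibroblast-like cells were the first source at Day 7 (52.9%) and Day 14 (56.5%). With the full expected rate of doublets removed, epithelial cell-like cells were the highest at Day 14. At their marker ratios at Day 14, Schwann cell-like cells would account for 17.0% of the macrophage-like *Cd9* level and dendritic cell-like cells for 12.7%. Epithelial cell-like cells would account for 6.60% and endothelial cell-like cells for 4.19%, beside the 16.6% for fibroblast-like cells. The part of these classes in the *Cd9* ratios was not tested. The Schwann cell and endothelial cell markers, given above, were no higher in macrophage-like cells at Day 14 than at earlier days. Whether any of these percentages reflects carried RNA was not tested. When each library was clustered alone, the Day 7 to Day 3 log2 ratio of *Cd9* was -0.02, and without the 50 most abundant genes it was -0.90. *Lgals3* (ENSMUSG00000050335, plus strand, chr14:47367751-47386160) was at 1315, 1194 and 1253 CPM, with log2 ratios of -0.14 and 0.07 whose signs turned under other settings. For *Lgals3* the macrophage-like class was the highest at each day, although epithelial cell-like cells came within 1.10-fold of it at Day 14. That first place at Day 14 went to epithelial cell-like cells with the full expected rate of doublets removed and without the *Retnla*-led cluster, and to dendritic cell-like cells at resolution 0.5 and with each library clustered alone. Dendritic cell-like cells would account for 2.88% of the macrophage-like *Lgals3* level at Day 14 at their marker ratio.

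Over all 10 genes, macrophage-like cells were the highest class for 7 at Day 3, 6 at Day 7 and 5 at Day 14, where 23.1%, 10.7% and 10.1% of genes with a mean of at least 10 CPM over the classes were highest in them. *Trem2*, *Apoe*, *Lpl* and *Lgals3* were highest in macrophage-like cells at each of the 3 days. With each cell classed from its own markers, a B cell-like class was higher for *Trem2* at Day 14 and for *Apoe* at Days 7 and 14, and at a clustering resolution of 0.5 dendritic cell-like cells were higher for *Lpl* at Day 14. *Lgals3* lost its first place at Day 14 under 4 settings, given above. Classes with at least 50 cells numbered 4, 7 and 8, so the 3 counts were made against different sets of classes. Over the 19 class and library groups, the genes whose log2(CPM + 1) ran closest to that of *Trem2* among 8490 were *Ms4a7* (Pearson r = 0.935), *F13a1* (0.923), *C1qa* (0.917), *C3ar1* (0.910) and *C1qc* (0.908). The groups come from 3 libraries and share their free RNA, so these are descriptions. *Ms4a7*, *C1qa* and *C1qc* are also among the markers from which the macrophage-like class was named. Among the set, *Apoe* was nearest at r = 0.786 (rank 76), followed by *Cd36* at 0.600 and *Gpnmb* at 0.594, while *Fabp4* was at -0.095 and *Cd9* at -0.277.

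**Figure D3:**
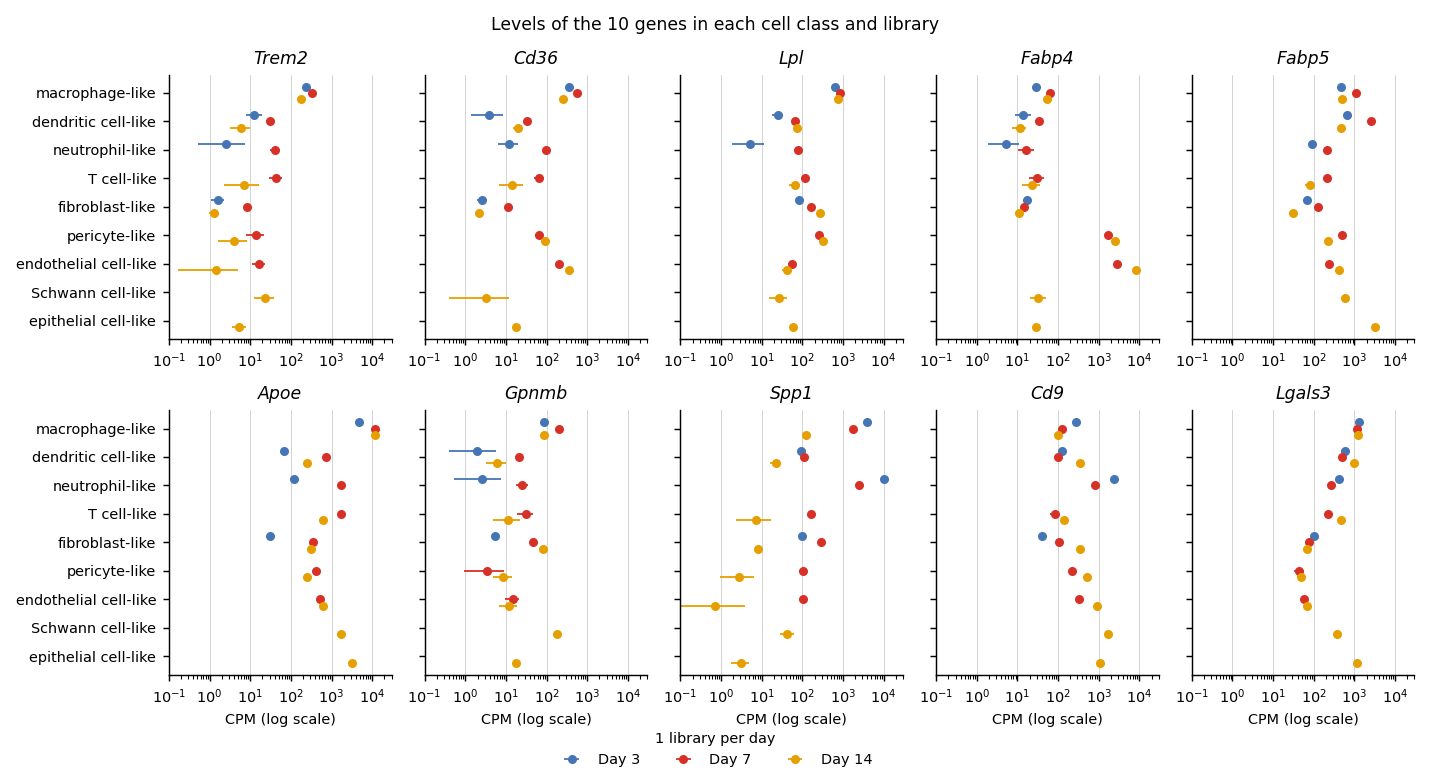
Level of the 10 genes in each cell class (rows) and library (colours), in CPM on a log scale; points are sums over all cells of a class with at least 50 cells in 1 library and bars are 95% Poisson counting intervals. *Trem2* and *Apoe* were highest in macrophage-like cells at each day, *Fabp4* in endothelial cell-like cells at Days 7 and 14, and *Spp1* and *Cd9* in neutrophil-like cells at Days 3 and 7.

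The genes were not spread evenly over the 8 macrophage-like clusters. The 10 genes and the other listed pathway and state genes were kept out of the clustering, yet cluster 0 had *Cd36*, *Arg1*, *Mmp12*, *Hmox1*, *Spp1* and *Trem2* among its leading genes. It held 856 cells at Day 3, 3177 at Day 7 and 75 at Day 14, which were 31.5%, 33.5% and 2.31% of macrophage-like cells. A cluster set against the rest is a description, since the same cells defined it. Cluster 0 supplied 53.6% of the macrophage-like UMIs of *Trem2* at Day 7, 70.2% of *Fabp5*, 70.0% of *Spp1* and 79.1% of *Gpnmb*, from 37.2% of all UMIs of the class.

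The few cells of cluster 0 left in the Day 14 library had the highest level of any macrophage-like cluster of that day for 9 of the 10 genes, all but *Apoe*, where it was the highest cluster for 18.3% of 7132 genes. *Cd36*, *Spp1* and *Trem2* are among the genes that describe cluster 0, so nothing is read from that count. *Gpnmb* was at 163 CPM at Day 3, 430.3 CPM at Day 7 and 1858 CPM at Day 14 in cluster 0, the last from 550 UMIs in 75 cells. From Day 7 to Day 14 this is a log2 ratio of 2.11 (1.98 to 2.24), opposite in sign to the -1.24 of the whole class. *Fabp5* was at 946, 2099 and 4146 CPM there, which is a log2 ratio of 0.98 (0.90 to 1.07) between the later 2 libraries. *Trem2* (289.9, 475 and 669 CPM), *Cd9* (254, 198 and 503 CPM) and *Lgals3* (1555, 1735 and 3828 CPM) were also higher at Day 14 than at Day 7 in cluster 0, by log2 ratios of 0.49 (0.28 to 0.70), 1.35 (1.10 to 1.59) and 1.14 (1.05 to 1.23). *Cd36* was level at 0.11 (-0.06 to 0.27). *Fabp4*, *Lpl* and *Apoe* were higher by 0.71 (0.28 to 1.12), 0.52 (0.39 to 0.64) and 0.38 (0.33 to 0.42). *Spp1* was lower in cluster 0 too, at 5472, 3394 and 1193 CPM. *Arg1*, the arginase of repair macrophages, was at 1557, 1478 and 10.1 CPM. The antigen-presentation gene *H2-Ab1* was at 87.8, 326 and 990 CPM, a log2 ratio of 1.60 (1.43 to 1.78) between the later 2 libraries. The Day 14 cells of cluster 0 thus differed in state genes from its Day 7 cells. These 75 cells made up 2.37% of the macrophage-like UMIs at Day 14 and held 51.5% of those of *Gpnmb*, 22.6% of *Spp1*, 20.1% of *Fabp5* and 8.71% of *Trem2*.

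Other clusters carried single genes of the set. Cluster 2, led by *Cbr2* with *Cd163*, *Mrc1*, *Folr2* and *Lyve1*, markers of resident perivascular macrophages, held the highest *Apoe* levels of any macrophage-like cluster, at 8257, 17327 and 18668 CPM, with *Trem2* at 296, 299 and 237 CPM and *Cd9* at 23.1, 25.1 and 28.6 CPM. The *Retnla*-led cluster 14 had low *Trem2* (140.4 and 51.5 CPM) and low *Apoe* (1656 and 952 CPM) at Days 7 and 14, beside *Lpl* at 1924 and 1750 CPM, the highest of all clusters at Day 7 and next to cluster 0 at Day 14. Cluster 9, led by *Rsad2* with *Chil3*, *Ly6c2* and *Il1b*, made up 52.0% of macrophage-like cells at Day 3, with 203 CPM of *Trem2*, 55.8 CPM of *Gpnmb* and 335 CPM of *Cd9*. Cluster 3, led by *Ly6c2*, *Cx3cr1* and *Ccr2*, which mark monocytes, had the lowest *Cd36* of all clusters at each day, at 25.5, 89.4 and 61.1 CPM.

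Directions within clusters were compared where a cluster held at least 100 cells in both libraries. *Spp1* was lower in the later library in 4 of 4 clusters from Day 3 to Day 7 and in 6 of 6 from Day 7 to Day 14, with log2 ratios of -1.51 to -0.69 and of -4.50 to -1.56. From Day 3 to Day 7, *Apoe* and *Gpnmb* were higher in 4 of 4, *Cd36* in 2 of 4 and *Trem2* in 1 of 4, with none lower, while *Fabp5* was higher in 2 and lower in 1 (-0.46), counting those whose interval left out 0. From Day 7 to Day 14, *Fabp5* and *Cd36* were lower in 5 of 6 clusters, *Trem2* in 4 of 6 and *Gpnmb* in 2 of 6 on the same count. *Cd9* was lower at Day 7 in 2 of 4 clusters and higher in 1, and at Day 14 it was lower in none of 6 and higher in 3. Cluster 0 is not among the 6, since it held 75 cells at Day 14.

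**Figure D4:**
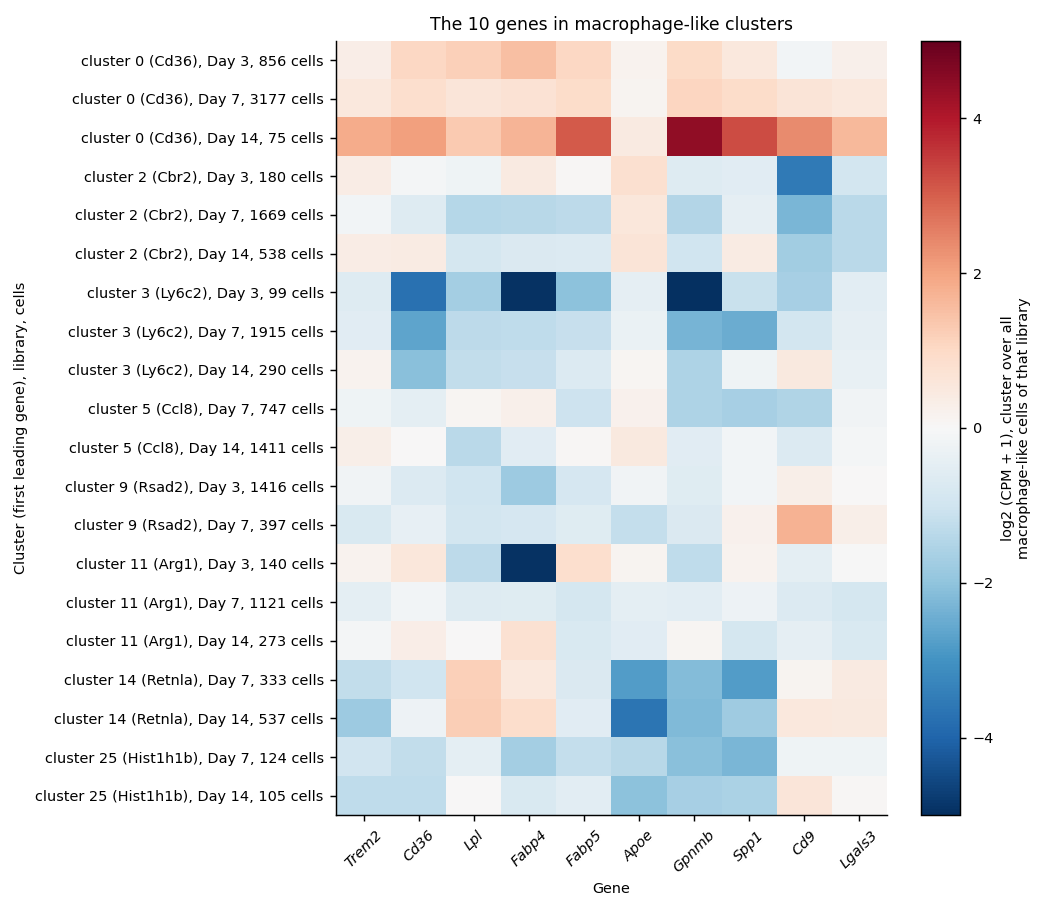
Difference in log2(CPM + 1) between each macrophage-like cluster and all macrophage-like cells of the same library (colour), for the 10 genes (columns) in each cluster and library (rows, with the first leading gene and the number of cells). Cluster 0 at Day 14, 75 cells, had the largest positive differences for *Gpnmb*, *Spp1* and *Fabp5*, and cluster 14 at Day 14 the largest negative one for *Apoe*.

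The last comparison asked whether single macrophage-like cells that held *Trem2* also held the other 9 genes. Cells were thinned to 1000 UMIs, so that deeper cells did not give more detections, and shares are averages over all possible thinnings. Genes were counted when the odds of a UMI in cells with *Trem2* were at least 2 times those in cells without it. None of the 9 passed at Day 3, 2 passed at Day 7 (*Apoe* and *Gpnmb*) and 3 at Day 14 (*Apoe*, *Gpnmb* and *Spp1*). Among genes found in at least 5% of the thinned cells, 0% of 2925, 0.263% of 2662 and 0.55% of 2547 passed. *Gpnmb* at Days 3 and 14 and *Fabp4* at each day were found in under 5% of cells and are outside that background.

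*Apoe* had the highest odds ratio of all tested genes at Day 14, at 8.03, with a UMI in 96.9% (94.8 to 98.3%) of cells with *Trem2* and 78.9% (77.2 to 80.4%) of cells without. At Day 7 its odds ratio was 2.83 (96.8% against 91.4% of cells) and at Day 3 it was 1.33 (84.1% against 79.8%). The Day 14 value depended on which cells were taken: the log2 odds ratio was 3.01 over the class, 2.62 without the *Retnla*-led cluster and from 1.46 (each library clustered alone) to 3.40 (thinned to 2000 UMIs) over all alternative settings. Within 5 clusters the odds ratio ran from 0.558 in cluster 2, where 99.8% of cells held *Apoe*, to 15.6 in cluster 25, with 103 cells. A constant added to each count sets such values where almost no cell with *Trem2* lacks *Apoe*, so no direction is read from these ends. *C1qa* (4.73), *C1qb* (3.86), *Fth1* (3.66) and *C1qc* (3.63) came next at Day 14, the complement genes among them being macrophage markers.

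*Gpnmb* went with *Trem2* at each day, with odds ratios of 1.78, 2.13 and 3.28. It was found in 6.73% (4.66 to 9.35%) of cells with *Trem2* and 3.93% (3.12 to 4.87%) without at Day 3, in 15.8% (14.3 to 17.5%) and 8.11% (7.46 to 8.79%) at Day 7, and in 9.92% (7.31 to 13.1%) and 3.27% (2.61 to 4.03%) at Day 14. The odds ratio of *Gpnmb* was over 1 within 3 of 3, 8 of 8 and 5 of 5 clusters that could be compared at Days 3, 7 and 14, and so was that of *Spp1*. At Day 14 the expected number of cells with both *Trem2* and *Gpnmb* was 1.41, 1.66 and 0.407 in clusters 3, 14 and 25. A constant added to each count raises the odds ratio at such low numbers, so these cluster counts cannot show whether the genes went together. *Spp1* gave 1.60, 1.70 and 2.92, *Fabp5* 1.45, 1.87 and 1.74, and *Cd36* 1.27, 1.54 and 1.35. *Lpl* was at 1.46 and 1.62 but at 0.887 at Day 14, which turned to a log2 odds ratio of 0.38 without the *Retnla*-led cluster and with each library clustered alone. For *Cd9* the values were 1.11, 1.21 and 1.56, and for *Lgals3* 1.21, 1.40 and 1.11, the last of which turned to a log2 odds ratio of -0.10 when cells were thinned to 2000 UMIs. *Ctsb*, a lysosomal protease, had the highest odds ratio with *Trem2* at Day 3 (1.87) and Day 7 (3.47).

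Among all 45 pairs of the 10 genes, 39 at Day 3, 42 at Day 7 and 37 at Day 14 had odds ratios over 1, with medians of 1.58, 1.996 and 1.63. Values for pairs of other genes were not computed, so these counts have no background. *Fabp5* and *Gpnmb* were found together beyond their separate shares at each day, with odds ratios of 4.33, 4.17 and 3.72. *Gpnmb* and *Spp1* gave 2.80, 3.56 and 6.64, the last from cells of which 29.4% with *Gpnmb* and 5.94% without held *Spp1*. *Apoe* ran against *Cd9* at Day 3 (0.200) and Day 7 (0.343), and against *Lpl* (0.208) and *Lgals3* (0.467) at Day 14. In that library the *Retnla*-led cluster 14 held 57.9% of the macrophage-like *Lpl* UMIs, 34.1% of those of *Lgals3* and 1.96% of those of *Apoe*. These pairs were not computed within clusters. At Day 3, 38.3% of cells without an *Apoe* UMI held *Cd9*, and 11.1% of cells with one did.

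**Figure D5:**
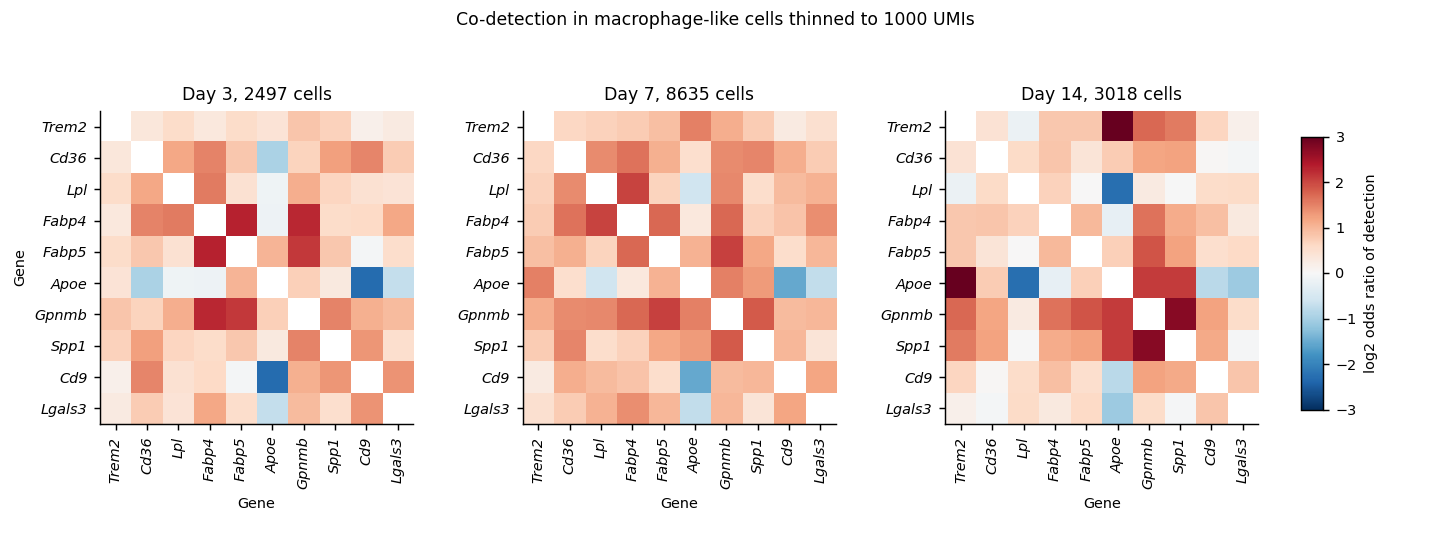
Log2 odds ratio of detection for each pair of the 10 genes in macrophage-like cells thinned to 1000 UMIs, at Day 3, Day 7 and Day 14 (red, found together more than apart; blue, less; the diagonal is blank). *Apoe* with *Cd9* at Days 3 and 7 and *Apoe* with *Lpl* at Day 14 were the lowest pairs, and *Apoe* with *Trem2* at Day 14 was the highest, at an odds ratio of 8.03.

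Cells that held many of the 10 genes at once made up a larger share of cluster 0 than of any other cluster. *Cd36*, *Spp1* and *Trem2* are among the genes that describe cluster 0, so this restates its description. Other sets of genes were not counted in this way, so the shares have no background. The median number found per thinned macrophage-like cell was 3, 3 and 2, and at least 1 was found in 98.1%, 99.0% and 98.3% of cells. At least 5 were found in 14.6% (13.2 to 16.0%) of cells at Day 3, 21.1% (20.2 to 21.9%) at Day 7 and 6.36% (5.51 to 7.29%) at Day 14. In cluster 0 the same share was 22.5% of 775 cells, 41.4% of 3071 and 51.9% of 70. No other cluster exceeded 13.7% at Day 3, 15.2% at Day 7 or 6.69% at Day 14. The Day 14 value of cluster 0 rests on 70 cells. Cluster 0 gave 47.5%, 69.9% and 18.3% of all macrophage-like cells with at least 5 of the genes at Days 3, 7 and 14. Cluster 9 gave 43.0% of them at Day 3, and the *Ccl8*-led cluster 5 gave 43.9% at Day 14, where it held 1396 of the 3018 thinned cells.

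Other genes of the pathway, 29 in all, were followed in the macrophage-like class against the same shares of all genes (5.24% lower and 2.43% higher by 2-fold from Day 3 to Day 7, then 3.26% and 2.48%). Among the partners and receptors reported, the scavenger receptor *Olr1* (from 106 to 22.8 CPM) was at least 2-fold lower at Day 7 than at Day 3, and none was at least 2-fold higher. *Tyrobp*, the adaptor of *Trem2*, was at 829, 1028 and 1556 CPM, which did not follow the lower *Trem2* of Day 14. Of 10 genes of the lysosome and lipid breakdown, none passed 2-fold from Day 3 to Day 7, and 4 were lower from Day 7 to Day 14. Those 4 were *Ctsb* (from 6621 to 3243 CPM), *Ctsd* (from 2451 to 788 CPM), *Ctsl* (from 1543 to 413 CPM) and *Psap* (from 6051 to 2957 CPM), which encode lysosomal proteases and a precursor of lipid-splitting cofactors. The scavenger receptor *Msr1* (from 177 to 62.9 CPM) was also lower in that step.

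Of 10 genes of lipid storage and efflux, *Pparg*, a lipid-sensing nuclear receptor that induces *Cd36* and *Fabp4*, was at 5.25 CPM at Day 3 and 13.4 CPM at Day 7, a mean under 10 CPM and so outside the background, and *Nr1h3*, the liver X receptor that induces *Apoe*, was at least 2-fold lower at Day 14 than at Day 7 (from 26.5 to 8.33 CPM). Median log2 ratios from Day 7 to Day 14 were -0.05 for partners and receptors, -0.42 for lysosomal genes and -0.44 for storage and efflux genes, beside -0.61 for the 10 genes and -0.10 for all genes. Of 12 genes of macrophage state, 3 were at least 2-fold higher and 4 lower from Day 3 to Day 7, and 2 were higher and 3 lower from Day 7 to Day 14, beside the same background shares. *Arg1* was at 1442, 808 and 2.64 CPM, *Chil3* at 197, 27.7 and 5.45 CPM, *Retnla* at 27.5, 341 and 2953 CPM, and the antigen-presentation gene *H2-Ab1* at 829, 1354 and 5198 CPM.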

How the data were processed

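Droplet libraries (Chromium 3' chemistry, v3.1) were read on a DNBSEQ-G400RS instrument. The values deposited by the authors are raw UMI counts for every gene in every barcode, with no normalisation, from Cell Ranger 6.0.0 and mm10 per the submitters' processing notes. The annotation release is not given in the sources used here. Symbols were matched for 32158 of 32285 genes, positions are from a GRCm38 annotation and promoter windows from RefSeq. At Days 3, 7 and 14 there were 5158, 22924 and 16611 barcodes with 38133650, 120940799 and 112713257 UMIs. Kept cells (4452, 21568 and 14472) had 200 or more genes, 500 or more UMIs and no more than 10% of UMIs from mitochondrial genes. Doublets were scored by simulation in each library, and the top scores were dropped until 0.5 of an expected rate of 0.8% per 1000 barcodes was reached (92, 1978 and 962 cells), so doublets remain.

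The remaining 37460 cells were clustered together without alignment (2000 variable genes, 30 components, 15 neighbours, Leiden at resolution 1, leidenalg 0.10.2). Left out of the clustering were 166 genes: the 10 genes, the listed pathway and state genes, *Gm42418*, and genes of mitochondria and ribosomal proteins. A cluster was named when at least 3 fixed markers of a class stood out in it, and stayed unnamed where markers of another class led it. This naming rule was adjusted after the clusters were seen. UMIs were summed over each class in each library and scaled to CPM. Intervals are Poisson for CPM, exact conditional binomial for ratios and Clopper-Pearson for shares. Thinning to 1000 UMIs was computed as the exact expectation over all thinnings (hypergeometric), except that the number of genes per cell came from 20 random draws. Intervals cover counting error only, and UMIs of 1 library are not replicates. The ratio intervals were tested on simulated Poisson counts and the odds ratio on simulated cells. The CPM and share intervals were not tested in this way, nor were odds ratios at low cell numbers.

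The genes named were the 10, the listed genes past 2-fold, the genes most like *Trem2* and the 5 most co-detected with it. *Clec7a*, 1 of the listed genes, was not analysed here, and 1 other result of the lists is not reported here. The genes and lists were chosen with earlier results of these data known. There were 14 alternative settings of scaling, cell weight, doublets, limits on cells, classes, clustering, low values and thinning depth. The 2 added after seeing the data leave out a shallow and a *Retnla*-led macrophage-like cluster. Python 3.11.15 with scipy 1.17.1 and pandas 2.3.3 was used.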

Additional observations from a re-analysis of the deposited data

Results flagged for a closer look

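Each of these results was picked out because 2 classes of cells moved in opposite directions between the same 2 libraries, each by at least 2-fold. None of the differences was tested, since each day had 1 library.

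From Day 3 to Day 7, *Spp1* had a log2 ratio of 1.58 in fibroblast-like cells (98.1 to 294 CPM), against -1.09 in macrophage-like cells, a difference of 2.67, and against -2.01 in neutrophil-like cells, a difference of 3.59. Within fibroblast-like cells the Day 7 level of *Spp1* was highest in the dividing cluster 18 (749 CPM) and the *Tnn*-led cluster 6 (487 CPM). *Cd9* had a log2 ratio of 1.39 in fibroblast-like cells, against -1.13 in macrophage-like cells (difference 2.52) and -1.53 in neutrophil-like cells (difference 2.92). The fibroblast-like levels of *Cd9* were 40.8 and 107 CPM, beside 276 and 126 CPM in macrophage-like cells.

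From Day 7 to Day 14, *Fabp4* had a log2 ratio of 1.56 in endothelial cell-like cells (2773 to 8188 CPM) against -1.54 in dendritic cell-like cells (33.2 to 11.4 CPM), a difference of 3.11. *Gpnmb* had a log2 ratio of 1.32 in pericyte-like cells, where it was at 3.41 CPM (0.93 to 8.73, from 4 UMIs) and 8.48 CPM (4.75 to 13.99, from 15 UMIs), against -1.24 in macrophage-like cells (difference 2.56), -1.43 in T cell-like cells (difference 2.74) and -1.83 in dendritic cell-like cells (difference 3.15). The 2 pericyte-like intervals overlap. The T cell-like change rests on 22 and 8 UMIs, which were 1.78 (1.11 to 2.69) and 1.85 (0.80 to 3.64) *Gpnmb* UMIs per 100 *Apoe* UMIs. The dendritic cell-like change rests on 78 and 14 UMIs, which were 2.91 (2.30 to 3.63) and 2.31 (1.26 to 3.87) per 100. Macrophage-like cells were at 1.74 (1.70 to 1.79) and 0.72 (0.68 to 0.76). The part of free macrophage RNA in either change was not tested, and neither is read as a change in expression of its class. The pericyte-like levels of *Gpnmb* were below those of the T cell-like class at each of the 2 days (30.5 and 11.3 CPM).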

How the results depend on the processing

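Under 14 alternative settings and 2 added after seeing the data, 97 of 103 counts of genes stayed within 1.5 times, and of 260 log2 ratios 7 turned sign, 119 moved by more than their counting interval and 134 did not. Of 216 odds ratios with *Trem2*, 16 moved by at least 0.25 on the log2 scale, and the sign turned for *Lpl* and *Lgals3* at Day 14 and *Fabp4* at Day 3. The 2 genes at least 2-fold lower at Day 7 became 0 without the 50 most abundant genes, with the median of ratios, and with each library clustered alone; *Spp1* stayed lower at -0.86, -0.96 and -0.64, and the cause was not tested. The 5 genes highest in macrophage-like cells at Day 14 became 3 when each cell was classed from its own markers and at resolution 0.5. The count co-detected with *Trem2* at Day 3 became 1 with each library clustered alone. Signs turned for *Lgals3*, Day 7 over Day 3 (0.0916 without the 50 most abundant genes, 0.13 with libraries clustered alone) and Day 14 over Day 7 (-0.0178 at resolution 0.5, -0.16 clustered alone, -0.0946 without the *Retnla*-led cluster), for *Apoe*, Day 14 over Day 7 (-0.0330 without the 50 most abundant genes), and for *Fabp4*, Day 14 over Day 7 (0.0488 as the mean CPM per cell). Leaving out the 50 most abundant genes moved the median log2 ratio of all genes from -0.13 to 0.12 (Day 7 over Day 3) and from -0.10 to -0.19 (Day 14 over Day 7). With a mean of at least 1 CPM in place of 10, the background shares were 4.94% lower and 9.19% higher at Day 7, and 5.39% and 4.92% at Day 14. Low counts limit *Fabp4* at Day 3 (359 UMIs) and the 75 Day 14 cells of cluster 0. No paired analysis was possible because each day had 1 library.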

Other observations

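Outside the macrophage-like class, 2 groups of cells stood out for single genes of the set. The unnamed cluster 12 of Day 14, with 1491 cells led by *Igfbp2*, *Gal* and *Tnmd*, held 202 CPM of *Gpnmb*, against 82.4 CPM in fibroblast-like cells of that library. Its leading genes include *Ppp1r14a* and *Pcolce2*, which the authors of the study list for a fibroblast subcluster that peaked at Day 14. The fibroblast-like cluster 16, led by *Prlr*, *Slc26a7* and *Igfbp3*, held *Apoe* at 3316 CPM at Day 7 (63 cells) and 2305 CPM at Day 14 (726 cells), against 357 and 306 CPM in the fibroblast-like class as a whole. *Trem2* was at 59.8 and 4.17 CPM in that cluster, against 8.49 and 1.25 CPM in the class. The part of macrophage RNA in these levels was not tested. Both clusters were picked after their values were seen.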
